A study of Mus musculus with 30 samples.

Results

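MCA-972 is a mouse fibrosarcoma line that came from 1 sarcoma raised with the carcinogen 3-methylcholanthrene (MCA), and its tumors are described here against those of 4 other lines of the same origin, MCA-943, MCA-948, MCA-969 and MCA-970. The 4 tumors whose titles start with MCA972 were taken out of 30 in all, and they are numbered 1 to 4 in the order of their accessions. The other 26 tumors were 4 of MCA-943, 8 of MCA-948, 8 of MCA-969 and 6 of MCA-970, and each of these lines had the same weight in the mean of the other lines. Each cell line had been passaged in culture and grown again as a subcutaneous tumor, after which cells carrying CD45, the common leukocyte antigen, were removed with magnetic beads before total RNA was sequenced.

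All tumors carried the genetic background label C57BL/6 and were grown in C57BL/6 mice. The mouse strain label was Ncr1Cre R26DTA for MCA-972, MCA-948, MCA-969 and MCA-970 and Ncr1Cre for MCA-943. In an Ncr1Cre R26DTA mouse, Cre recombinase made by cells that express the receptor NKp46 switches on diphtheria toxin A and removes natural killer (NK) cells and related innate lymphoid cells. The labels do not say whether that strain was the donor of the first tumor or the host. In the paper, lines came from MCA tumors of mice of such genotypes and were transplanted into C57BL/6 mice. The strain is therefore read here as that of the donor. MCA-972 was labelled NK cell sensitive, as were MCA-948 and MCA-970. Every tumor of MCA-943 and 6 of the 8 MCA-969 tumors were labelled not sensitive, and the other 2 MCA-969 tumors were labelled sensitive. Ages and any antibody given to single mice were not stated in the labels. The titles carry a letter, a or W, that the labels do not explain. Of the MCA-972 titles 3 had the letter a, 1 had no letter and 0 had W, while each other line held both letters. A line stands for 1 original tumor, so a difference between MCA-972 and the others cannot be told apart from a difference between any 2 sarcomas, and the p-values below measure the spread between tumors of a line.

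Fibrosarcomas are malignant tumors of mesenchymal cells that make collagens and other matrix proteins. Mesenchymal cells can also take up parts of the programs of smooth muscle, cartilage and bone, and they keep a record of the place in the body they came from in their Hox genes, which code for transcription factors that set position along the body axis. NK cells read ligands on tumor cells through activating receptors and are held back by major histocompatibility complex (MHC) class I.

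Counts per tumor came to 37623787 to 40088940 reads in genes for MCA-972 and 27745104 to 46537062 over all 30. Levels are given as CPM, the counts of a gene per 1000000 counts of the library, scaled by the trimmed mean of M-values (TMM), and they are not corrected for gene length, so they are compared between tumors and never between genes. Where 4 values are listed, they belong to MCA-972 tumors 1, 2, 3 and 4 in that order. The tumors held the genes that define a fibroblast. The 22 fibroblast markers summed to 64944 to 88320.3 CPM in the MCA-972 tumors and between 19815 and 107459.6 CPM (median 35454) in the other 26. Within MCA-972 the 6 pairs of tumors correlated at 0.9867 to 0.9916 (Pearson's r across the tested genes, which are not independent replicates), and the median correlation with the tumors of another line ran from 0.9157 with MCA-943 to 0.9479 with MCA-970. All 4 MCA-972 libraries lie in the first of 3 blocks of library numbers, together with 6 MCA-969 tumors and no tumor of another line.

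A gene was called where its adjusted p (Benjamini-Hochberg, edgeR's quasi-likelihood test over 16862 tested genes) was under 0.05 and its log2 fold change was at least 1 in size. Against the mean of the other lines, 1835 genes were higher in MCA-972 (10.9% of those tested) and 1016 were lower (6.03%). Against MCA-943 there were 2257 higher genes (13.4%) and 2065 lower (12.2%). Against MCA-948 there were 3118 higher (18.5%) and 1395 lower (8.27%). The comparison with MCA-969 gave 1729 higher and 1744 lower genes, 10.3% in either direction. The comparison with MCA-970 gave the fewest, 1519 higher (9.01%) and 1443 lower (8.56%). A mean can be moved by 1 line, so the genes that were called the same way in all 4 comparisons were counted as well. They came to 417 higher (2.47%) and 185 lower (1.1%), of which 338 and 164 code for proteins. The 4 comparisons share the MCA-972 tumors and are not independent of one another.

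**Figure D1:**
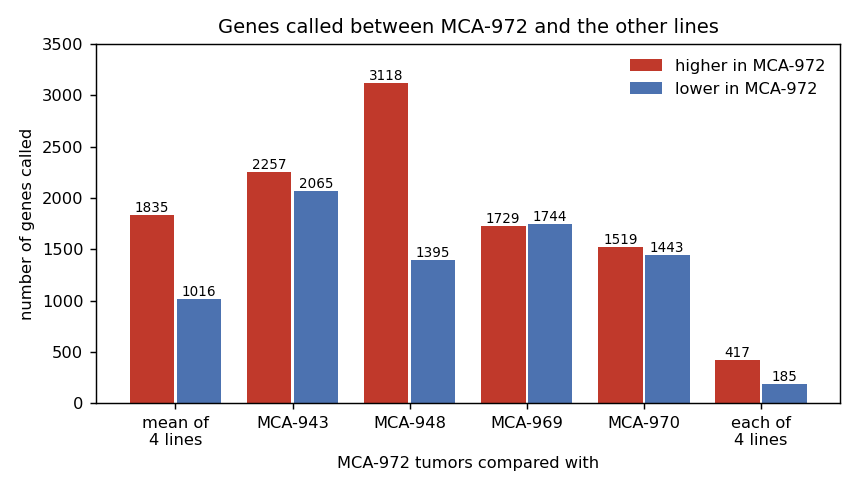
Number of genes called (vertical axis) as higher (red) or lower (blue) in the 4 MCA-972 tumors, against the mean of the other 4 lines, against each line, and in all 4 comparisons at once. Far fewer genes pass in all 4 comparisons (417 and 185) than in any single one.

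The first library block allowed 1 comparison of lines within a block, with 4 MCA-972 and 6 MCA-969 tumors. It called 1540 genes higher (9.7% of 15878 tested) and 1600 lower (10.1%). Of the 417 genes that were higher than in each line, 410 were tested there and 396 were called, and of the 185 lower genes 173 were tested and 171 were called. Those genes had been chosen in part by their call against MCA-969, and the same tumors were used again. These counts were thus largely set by the choice. First-block calls of the genes named below are no separate support either, since those genes were chosen on the same tumors. With the library block as a term in the fit of all tumors, the number higher than in each line fell to 179 and the number lower to 140. Of the 182 named genes called against the mean, 56 lost their call in that fit, and 40 of these 56 were called within the first block against MCA-969. Where a gene described below lost its call, its adjusted p with the block as a covariate is given. That fit learns the block from MCA-969 and MCA-948 alone, since each of the other lines lies in 1 block. For MCA-943, MCA-948 and MCA-970, block and line cannot be told apart by a direct comparison with MCA-972.

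Among the protein-coding genes higher than in each line, the 12 with the largest difference in their weakest comparison stood at no more than 3.28 CPM in any tumor of another line. They were B3gat1, Dcaf12l1, Rbm44, St8sia2, Arhgap36, Gm12666, Gabrg3, Gabrb2, Asb2, Igsf5, Ptprd and Rbm20. The ranges of MCA-972 and of the other 26 tumors did not overlap for any of the 12, a pattern that the choice of genes favours. The share of all tested genes without overlap is not given here, so this only describes the 12. With the library block as a covariate 7 of the 12 lost their call, namely B3gat1, Dcaf12l1, Arhgap36, Gm12666, Gabrg3, Gabrb2 and Asb2 (adjusted p = 0.982 for Gm12666 and 0.9999 for the other 6). All 7 kept a positive log2 fold change in that fit, with 4.91 for Gm12666. That fit learns the block from MCA-969 and MCA-948, where these genes were near 0, so for them it cannot tell block from line. Within the first block all 7 were called against MCA-969, with adjusted p from 3.36e-08 for Dcaf12l1 to 8.27e-06 for Arhgap36. The choice of these genes already used MCA-969 and the same tumors, so this is not a separate test. Igsf5, an immunoglobulin superfamily member known as a junctional adhesion molecule, lies on chromosome 16 from 96361668 to 96422121 (GRCm38). It stood at 73.2, 61.6, 59.7 and 76.7 CPM, against 0.217 to 3.28 CPM (median 0.933) in the other 26 tumors. This was a log2 fold change of 6.09 ± 0.31 (SE), adjusted p = 2.56e-15, and the smallest pairwise difference was 5.13 against MCA-969.

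The 12 included a pair of enzymes that build cell-surface sugars. B3gat1 makes the HNK-1 carbohydrate, also known as CD57, and St8sia2 makes polysialic acid, which loosens contacts between cells. St8sia2 was at 23.8, 12.7, 27.4 and 25.2 CPM, against 0 to 0.2904 CPM (median 0.0406) in the other 26 tumors (log2 fold change of 8.71 ± 0.37 (SE), adjusted p = 2.47e-17). B3gat1 was at 3.44, 5.36, 6.36 and 13.1 CPM, and no other tumor exceeded 0.0621 CPM (adjusted p = 2.76e-14, and 0.9999 with the block covariate). Lines with no count of a gene in any tumor allow no fold, and this held for 2 of the 4 lines in B3gat1. Where at least 1 line was at 0, only levels and the adjusted p are given. Within MCA-972 tumor 4 was highest and tumor 1 lowest, and all 4 lay above every other tumor.

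Genes used by nerve and muscle were among them too. Gabrb2 and Gabrg3 code for subunits of the GABA-A receptor, a chloride channel of neurons. Gabrg3 was at 2.92, 1.98, 3.701 and 2.37 CPM and Gabrb2 at 1.09, 1.03, 1.09 and 0.835 CPM, while no other tumor exceeded 0.166 and 0.0598 CPM (adjusted p = 5.33e-12 and adjusted p = 4.79e-11). With the block covariate the log2 fold change of Gabrg3 was 5.24, and the adjusted p was 0.9999 for both. Ptprd, a receptor tyrosine phosphatase that organises synapses, was at 15.9, 18.6, 14.9 and 27.6 CPM, against 0.0339 to 1.06 CPM (median 0.189) in the other 26 tumors (log2 fold change of 6.4 ± 0.34 (SE), adjusted p = 4.55e-15). Rbm20, which controls splicing of titin in heart muscle, was at 20.3, 17.5, 29.6 and 24.2 CPM, against 0.0726 to 1.37 CPM (median 0.451) in the other 26 tumors (log2 fold change of 5.8 ± 0.20 (SE), adjusted p = 1.19e-19). Rbm44, an RNA-binding protein of germ cells, was at 31.6, 37.8, 40.8 and 29.3 CPM, against 0 to 0.2795 CPM (median 0.0923) in the other 26 tumors (log2 fold change of 8.63 ± 0.21 (SE), adjusted p = 3.38e-23). The other 4 genes, Dcaf12l1, Arhgap36, Gm12666 and Asb2, had means of 1.01 to 3.35 CPM in MCA-972, and the highest level in any other tumor was 0.122 CPM. Asb2 codes for a part of a ubiquitin ligase that degrades filamins.

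**Figure D2:**
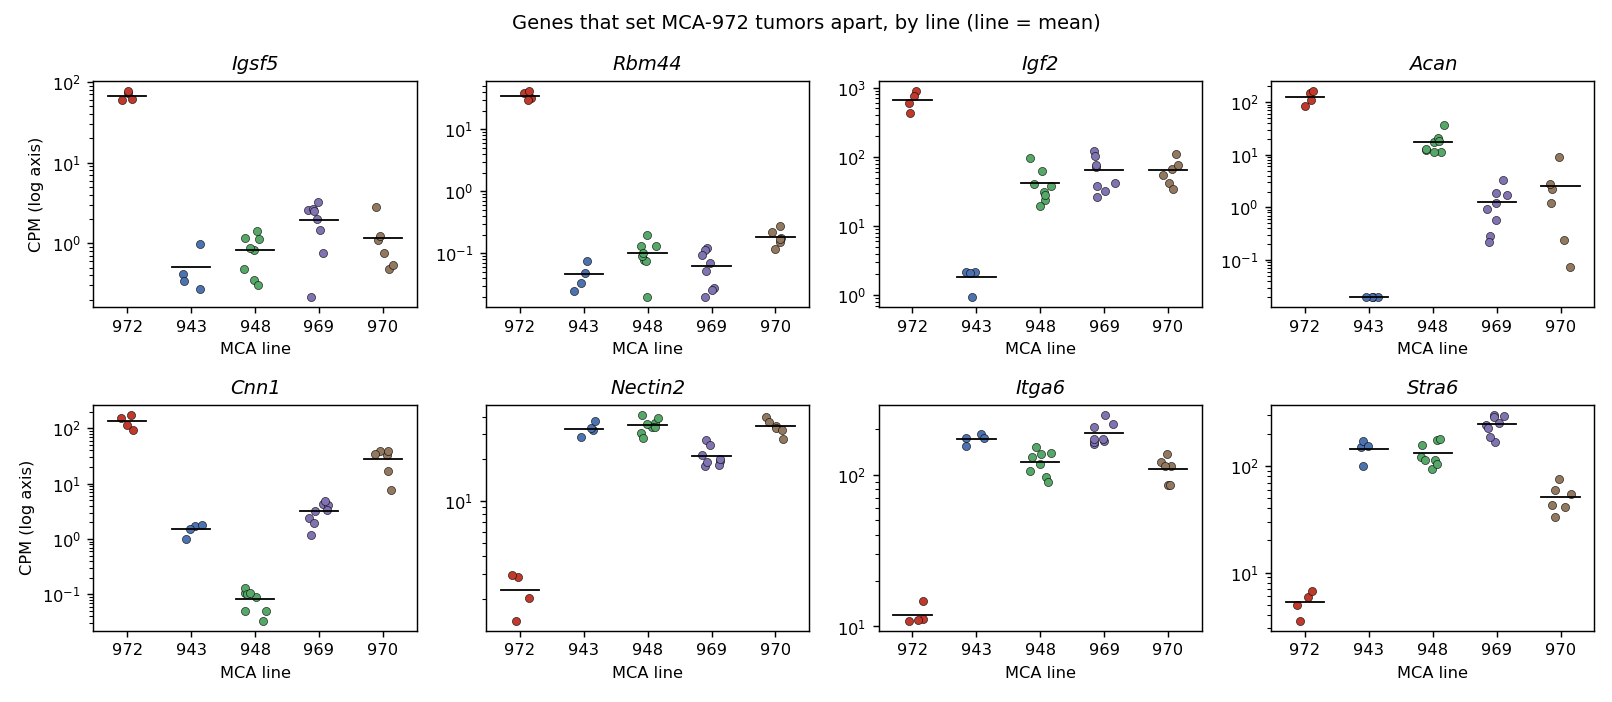
CPM (log axis) of 8 genes in each of the 30 tumors, by line, with a bar at each line's mean; values of 0 and others too low for the axis sit at its lower end. The 4 MCA-972 tumors lie above all others for Igsf5, Rbm44, Igf2, Acan and Cnn1 and below all others for Nectin2, Itga6 and Stra6.

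The 12 lower genes chosen in the same way included Wnt10a, Lgals7, Scx, Fam83g, Stra6, Itga6, Nectin2, Hoxc10, Prl2c3, Crip2 and Rab11fip1. No range overlapped for any of the 12 either, which the choice of genes again favours, and the share over all tested genes is not given. Itga6, the integrin subunit that binds laminins, was at 11.1, 11.1, 10.9 and 14.7 CPM, against 85.4 to 247 CPM (median 145) in the other 26 tumors. This was a log2 fold change of -3.59 ± 0.16 (SE), adjusted p = 8.80e-17, and the smallest pairwise difference was -3.19 against MCA-970. Stra6, the receptor that takes up vitamin A from its carrier in blood, was at 5.87, 4.96, 3.54 and 6.77 CPM, against 32.9 to 301 CPM (median 152) in the other 26 tumors (log2 fold change of -4.56 ± 0.26 (SE), adjusted p = 2.99e-14).

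Nectin2 was the 1 gene of the 12 that is also on the list of NK cell ligands. It codes for CD112, which is bound by the activating receptor DNAM-1 on NK cells, and lies on chromosome 7 from 19716644 to 19750483. It was at 1.39, 2.84, 2.01 and 2.92 CPM, against 17.7 to 41.1 CPM (median 32.2) in the other 26 tumors (log2 fold change of -3.71 ± 0.17 (SE), adjusted p = 5.93e-17). The line means elsewhere were 32.9 CPM in MCA-943, 34.6 in MCA-948, 20.9 in MCA-969 and 34.1 in MCA-970, and the difference was called against the lines of either NK cell label. Within the first library block the log2 fold change against MCA-969 was -3.06 (adjusted p = 9.82e-08). Pvr, the other DNAM-1 ligand, was not called, at 63.3, 54.6, 44.5 and 56.9 CPM against 36.6 to 122 CPM (median 67.2) in the other 26 tumors (log2 fold change of -0.24, adjusted p = 0.0962). Pvr was named after its value was seen.

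Developmental regulators were among the lower genes too. Scx, a transcription factor of tendon, was at 0.328, 0.367, 0.1303 and 0.278 CPM, against 3.35 to 48.7 CPM (median 7.305) in the other 26 tumors (log2 fold change of -5.03 ± 0.36 (SE), adjusted p = 2.19e-12). Wnt10a and Hoxc10 are described with their families. Lgals7, a galectin of stratified epithelium, was at 0.0819, 0.465, 0.182 and 0.306 CPM, against 2.57 to 129 CPM (median 15.2) in the other 26 tumors (log2 fold change of -6.13 ± 0.58 (SE), adjusted p = 6.70e-10). Fam83g, Prl2c3, Crip2 and Rab11fip1 had log2 fold changes of -4.33, -3.95, -3.49 and -3.18. Prl2c3 belongs to a family of near-identical proliferin genes, among which reads can be shared, so its level is uncertain.

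The genes higher in MCA-972 were not spread evenly over the genome. Along chromosome 4 (GRCm38), from Eqtn to Alg6, 18 neighbouring protein-coding genes in a row were called higher than the mean of the other lines, between positions 94907267 and 99763460. This stretch of 4.856 Mb was picked out because it was the longest run of same-direction calls in the genome, so its count is a description, and the next longest run had 7 genes. Against each line singly, 17 of the 18 were called, and only Hook1 was not. For those 17, the MCA-972 tumors did not overlap with the other 26, a pattern that the choice of the run and the calls against each line favour. The share of all tested genes without overlap is not given here. The median log2 fold change over the 18 genes was 3.26, and it was 3.26 as well with Cyp2j12, which had 0 counts in every other tumor, set to the limit that 3 counts per library allow. Counting tested genes of every type, 26 of 28 in the stretch were called higher than the mean. The processed pseudogenes Gm12693 and Gm12696 were not (log2 fold changes of -0.17 and -0.52, adjusted p = 0.604 and 0.00949).

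The genes of the run have varied known functions. Jun codes for the AP-1 transcription factor subunit c-Jun and took the most reads of them. It spans positions 95049034 to 95052222 on the minus strand. It was at 8322, 7536, 7724 and 13704 CPM, against 1048 to 2653 CPM (median 1878) in the other 26 tumors. This was a log2 fold change of 2.33 ± 0.11 (SE), adjusted p = 2.50e-16, and the smallest pairwise difference was 1.88 against MCA-943. Usp1, a deubiquitinase of the Fanconi anemia DNA repair pathway, was at 835, 554, 486 and 828 CPM, against 59.96 to 183 CPM (median 91.3) in the other 26 tumors (log2 fold change of 2.8 ± 0.10 (SE), adjusted p = 5.05e-19). Mysm1, a deubiquitinase of histone H2A, was at 269, 209, 344 and 268 CPM, against 16.9 to 39.8 CPM (median 27.3) in the other 26 tumors (log2 fold change of 3.28 ± 0.11 (SE), adjusted p = 2.47e-20). Alg6, a glucosyltransferase of protein N-glycosylation and the last gene of the run, was at 103, 108, 160.1 and 138 CPM, against 10.7 to 38.5 CPM (median 20.9) in the other 26 tumors (log2 fold change of 2.55 ± 0.11 (SE), adjusted p = 2.81e-17).

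Genes that differ among the other lines were raised as well. Nfia, a transcription factor of the nuclear factor I family, was at 267, 179.7, 341 and 299.5 CPM, and its means elsewhere were 104 CPM in MCA-943, 4.03 in MCA-948, 18.4 in MCA-969 and 14.6 in MCA-970. Its smallest pairwise difference was 1.38 against MCA-943. Cyp2j6 and Cyp2j9, cytochrome P450 enzymes, were at 141, 99.4, 79.7 and 167 CPM and 19.3, 12.3, 9.49 and 25.9 CPM, with smallest differences of 1.85 against MCA-943 and 1.2 against MCA-943. Other genes of the run, Fggy, Tm2d1, Patj, Kank4, Atg4c, E130114P18Rik and Gm12689, had log2 fold changes of 3.4, 2.22, 3.43, 5.58, 2.55, 5.81 and 3.25. With the library block as a covariate E130114P18Rik and Cyp2j12 lost their call (adjusted p = 0.9999 for both). Eqtn, the first gene of the run, was at 1.28, 0.954, 0.886 and 1.28 CPM, against 0.0338 to 0.279 CPM (median 0.145) in the other 26 tumors. Hook1, a cargo adaptor of the motor dynein, was at 9.25, 6.33, 4.07 and 9.19 CPM, but MCA-969 had a mean of 5.22 CPM, and the difference from that line was 0.47 (adjusted p = 0.0755). Several of these genes overlap a transcript on the other strand, Jun with Junos and Nfia with E130114P18Rik among them, and the counting is not stated to use strand, so reads of such pairs cannot be told apart.

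The edges of the run were sharp. Tek and Ift74, the 2 protein-coding genes before Eqtn, had log2 fold changes of 0.79 (adjusted p = 0.146) and 0.12 (adjusted p = 0.17). Itgb3bp and Efcab7, the 2 after Alg6, had 0.10 and -0.02 (adjusted p = 0.586 and 0.917). By tumor, the median log2 difference of the 18 genes from the mean of the other lines was 3.35, 2.82, 2.88 and 3.38 in MCA-972, and it lay between -0.52 and 0.23 in the other 26. Within the first library block 17 of the 18 genes were called against MCA-969. Outside the run, Gm12666 before it and Raver2 after it were higher than in each line too. DNA was not measured, so gene copies and RNA per copy cannot be told apart here.

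**Figure D3:**
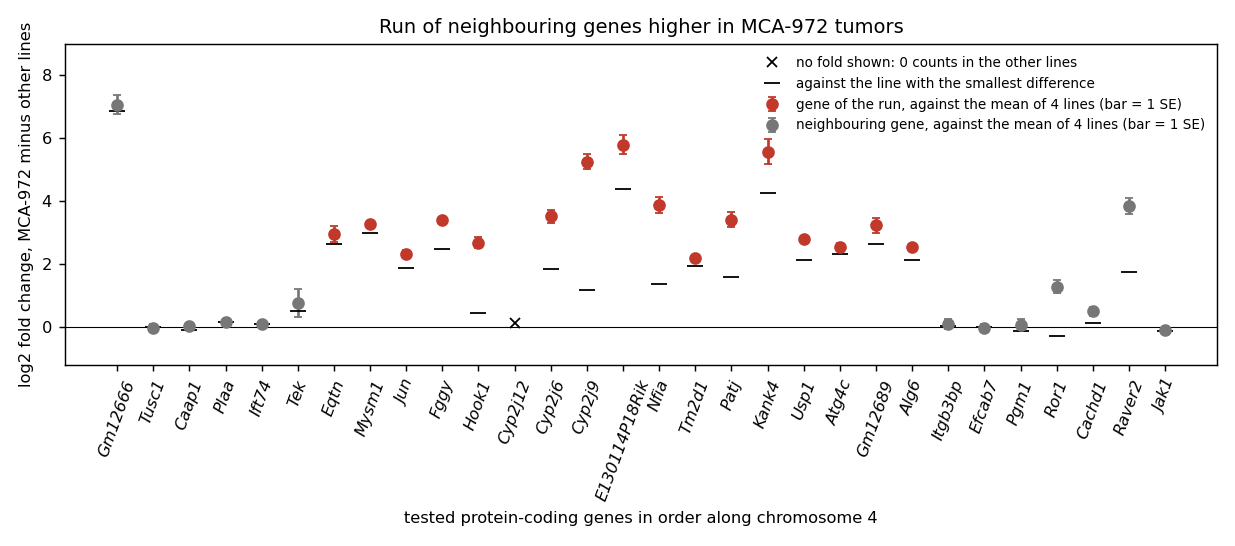
Log2 fold change of MCA-972 tumors against the mean of the other 4 lines (points, bars of 1 SE) and against the line with the smallest difference (dashes), for tested protein-coding genes in order along chromosome 4. The genes of the run shown with a fold (red) lie between 2.22 and 5.81, and the nearest genes on either side (grey) were not called; a cross marks Cyp2j12, which has no fold because the other lines had no count.

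The 250 bases before the start of Jun are shown because Jun took the most reads in the run and its own promoter is a known target of AP-1. They lie at chr4:95052223-95052472 on the minus strand (RefSeq, GRCm38.p6), written 5′ to 3′, with a CCAAT box and an AP-1 related site of the form TGACNTCA in capitals.
Jun: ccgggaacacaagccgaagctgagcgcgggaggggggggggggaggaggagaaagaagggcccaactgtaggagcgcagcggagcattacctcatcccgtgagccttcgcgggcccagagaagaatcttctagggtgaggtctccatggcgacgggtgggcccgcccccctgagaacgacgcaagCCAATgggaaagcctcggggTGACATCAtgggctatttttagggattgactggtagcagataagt
The capitals mark motifs that do not overlap. The AP-1 related site lies 45 to 38 bases before the start and the CCAAT box 65 to 61 bases before it. On either strand, TGACNTCA was found in 6.22% and CCAAT in 36.1% of the 11695 tested genes that had a promoter in the table (1 start per gene). The shorter AP-1 site TGANTCA and the TATA box TATAAA were searched as well and are not in these letters of Jun. Among the 263 such genes higher than in each line, TGANTCA was found in 4.94%, against 4.65% of all 11695, and TATAAA in 11.8%, against 6.96%.

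Among the autosomes and the X chromosome, medians over whole chromosomes lay between -0.41 and 0.34. The 8 tested genes of the Y chromosome had a median of -3.52, and 0.17, -5.16, -5.25 and -4.18 against MCA-943, MCA-948, MCA-969 and MCA-970. The 20 tested mitochondrial genes had a median of 0.44, and 0.40, -0.09, -0.03 and 1.54 in that order. Chromosome 7 had a median log2 fold change of -0.41 over 1255 tested genes, and it was -0.65, -0.47, -0.49 and -0.10 against MCA-943, MCA-948, MCA-969 and MCA-970. Chromosome 16 was shifted upward by nearly the same amount against every line, 0.37, 0.33, 0.37 and 0.32 in that order. Chromosome 5 had 0.33, 0.02, 0.26 and 0.21, chromosome 18 had 0.36, 0.21, 0.30 and 0.22 and the X chromosome had 0.32, 0.12, 0.24 and 0.29. The median over all tested genes was -0.005 with TMM and 0.019 with the size factors of DESeq2. These shifts held in each of the 4 tumors, which had medians of -0.41, -0.40, -0.38 and -0.42 for chromosome 7 and of 0.34, 0.39, 0.40 and 0.33 for chromosome 16. Xist, the RNA of the inactive X chromosome, was at 464, 531, 513 and 416 CPM, with means of 551 CPM in MCA-943, 0.0819 in MCA-948, 0.179 in MCA-969 and 0.0488 in MCA-970. Y-linked Ddx3y was at 0.846, 1.88, 2.16 and 1.56 CPM, with means of 1.58 CPM in MCA-943, 80.8 in MCA-948, 66.3 in MCA-969 and 48.9 in MCA-970. MCA-972 thus shared high Xist and low Y-linked RNA with MCA-943 alone, and the labels give no sex. On this list of 5 sex-linked genes, 1 was higher and 4 were lower than the mean.

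Gene lists were compared next, each read against the 10.9% higher and 6.03% lower among all tested genes. They were drawn up with earlier results of these data known, so their counts are descriptions. Genes of the smooth muscle contractile apparatus changed in 1 direction. For this list 8 of 15 tested members were higher and 0 lower, with a median log2 fold change of 2.25. Cnn1, the actin-binding protein calponin of smooth muscle, was at 153, 92.8, 173 and 113 CPM, against 0.0338 to 39.4 CPM (median 1.87) in the other 26 tumors (log2 fold change of 6.17 ± 0.23 (SE), adjusted p = 2.49e-18). Myh11, the smooth muscle myosin heavy chain, was at 4.23, 11.7, 9.57 and 5.37 CPM, against 0.125 to 1.64 CPM (median 0.458) in the other 26 tumors (log2 fold change of 3.92 ± 0.37 (SE), adjusted p = 4.82e-10). Both were higher than in each line, and their ranges did not overlap with the rest.

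Myl9 and Actg2 were higher than in 3 lines but not than in MCA-943. Myl9, a myosin light chain, was at 133, 102, 164 and 122 CPM, with means of 72.5 CPM in MCA-943, 2.35 in MCA-948, 21.2 in MCA-969 and 37.6 in MCA-970, and its log2 fold change against MCA-943 was 0.85 (adjusted p = 0.07). Actg2, the enteric smooth muscle actin, was at 20.6, 38.2, 48.3 and 33.96 CPM, with means of 118 CPM in MCA-943, 0.303 in MCA-948, 1.295 in MCA-969 and 1.17 in MCA-970. Of the 15 contractile genes 12 had a promoter in the table, and in 1 of these, Myl9, the 250 bases before the start hold the CArG box bound by serum response factor, against 1.18% of all tested genes with a promoter. The Myl9 sequence (chr2:156775214-156775463, plus strand, RefSeq, GRCm38.p6) is shown with that box in capitals.
Myl9: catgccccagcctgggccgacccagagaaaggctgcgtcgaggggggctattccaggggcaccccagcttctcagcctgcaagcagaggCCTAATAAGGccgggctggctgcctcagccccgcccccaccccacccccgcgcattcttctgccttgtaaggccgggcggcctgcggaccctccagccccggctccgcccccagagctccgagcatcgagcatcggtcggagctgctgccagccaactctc

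**Figure D4:**
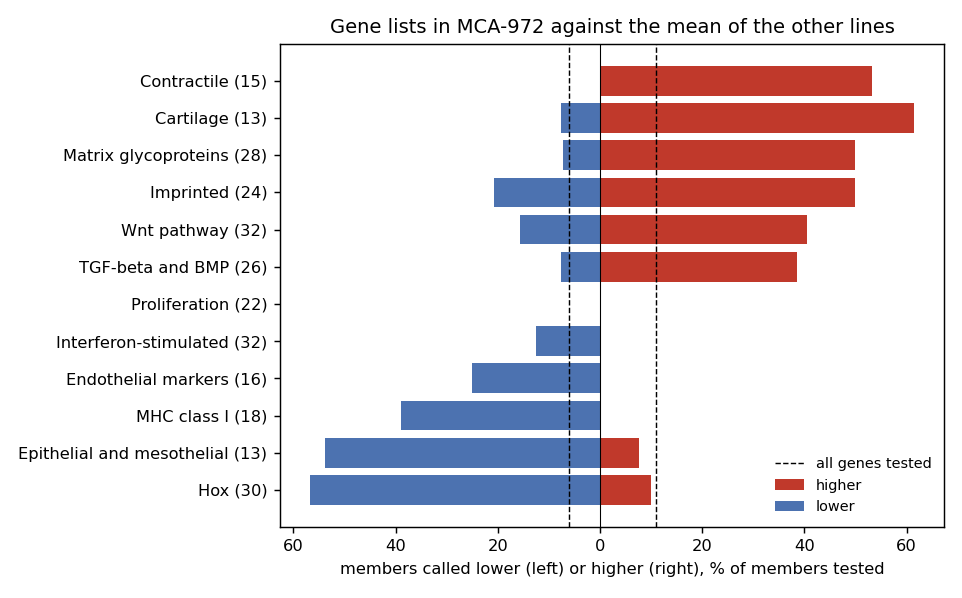
Share of the tested members of 12 gene lists (number tested in parentheses) called lower (blue, left) or higher (red, right) in MCA-972 against the mean of the other lines, in percent. Dashed lines mark the shares over all tested genes, 6.03% lower and 10.9% higher. Contractile, cartilage and matrix lists lie past the right line, and Hox, epithelial and MHC class I lists past the left one. Cartilage and matrix lists also pass the left line (7.69% and 7.14% lower). Imprinted, Wnt and TGF-beta lists pass both lines, and interferon and endothelial lists pass the left one.

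Most tested cartilage genes were higher. On this list 8 of 13 tested members were higher and 1 lower, and 9 of its 22 members with any count did not pass the filter on low counts. Acan codes for aggrecan, the large proteoglycan of cartilage. It was at 148, 86.2, 160.4 and 109 CPM, with means of 0 CPM in MCA-943, 17.7 in MCA-948, 1.25 in MCA-969 and 2.57 in MCA-970 (adjusted p = 1.14e-11), and its smallest pairwise difference was 2.83 against MCA-948. Col10a1, the collagen of hypertrophic cartilage, was also higher than in each line but at only 0.764, 0.489, 1.15 and 0.919 CPM (adjusted p = 0.0694 with the block covariate). Col11a1 was as high in MCA-970, at 322 ± 18.3 CPM (SD, n = 4) in MCA-972 and a mean of 322 CPM in MCA-970. Sox9, the master regulator of cartilage, was not called, at 142, 140.4, 149 and 232 CPM against 97.05 to 468 CPM (median 158) in the other 26 tumors (log2 fold change of -0.05, adjusted p = 0.858), and Col2a1 stayed between 0.409 and 1.27 CPM. Sox9 and Col2a1 were named after their values were seen. On the bone list 3 of 10 tested members were higher and 1 lower, and none was called against each line.

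Among the matrix glycoproteins 14 of 28 tested members were higher and 2 lower, with a median of 0.92. Eln, the elastic fibre protein elastin, was at 64.3, 65.4, 81.7 and 185 CPM, against 0.795 to 45.5 CPM (median 9.805) in the other 26 tumors (log2 fold change of 3.17 ± 0.34 (SE), adjusted p = 9.14e-09). Mfap5, which binds elastic microfibrils, and Sparcl1 had log2 fold changes of 3.05 and 2.51. Fras1, a basement membrane protein, was at 4.94, 6.99, 7.402 and 10.5 CPM, against 0.136 to 4.31 CPM (median 2.31) in the other 26 tumors (log2 fold change of 2.47 ± 0.24 (SE), adjusted p = 8.26e-10). In the other direction, the hyaluronan synthase Has1 was at 1.99, 3.18, 2.11 and 5.23 CPM, against 7.66 to 186 CPM (median 21.02) in the other 26 tumors (log2 fold change of -3.24 ± 0.38 (SE), adjusted p = 5.02e-08). Sparcl1 had an adjusted p of 0.0721 with the block covariate. Eln, Fras1 and Has1 were called against each line.

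Fibroblast markers gave 6 higher and 1 lower of 22. Lum, the collagen-binding proteoglycan lumican, was at 904, 713, 948 and 799 CPM, with means of 32.1 CPM in MCA-943, 26.2 in MCA-948, 412 in MCA-969 and 107 in MCA-970 (log2 fold change of 3.43 ± 0.31 (SE), adjusted p = 2.25e-10), and its smallest difference was 1.03 against MCA-969. Within the first block Lum was not called against MCA-969 (log2 fold change of 0.78). Postn, Fbln1 and Col6a3 were higher than the mean by 2.35, 1.82 and 1.3 on the log2 scale, and S100a4 was lower (-1.84). Among matrix proteases and their inhibitors 4 of 23 tested members were higher and 1 lower. Adamts9, a protease of versican, was at 183, 126, 137 and 145 CPM, against 13.9 to 64.7 CPM (median 33.5) in the other 26 tumors (log2 fold change of 2.33 ± 0.13 (SE), adjusted p = 3.86e-15), and Mmp9 was lower (-1.72). On the skeletal muscle list 1 of 8 tested members was higher and 3 lower, and Tnnt1, the slow muscle troponin, was lower than in each line, at no more than 0.111 CPM.

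Imprinted genes are expressed from 1 parental copy, and several of them control growth. On this list 12 of 24 tested members were higher and 5 lower, with a median of 0.84. Igf2, a fetal growth factor, was at 434, 883, 589 and 766 CPM, with means of 1.85 CPM in MCA-943, 42.2 in MCA-948, 63.5 in MCA-969 and 63.9 in MCA-970 (log2 fold change of 4.81 ± 0.29 (SE), adjusted p = 7.22e-14). H19, the noncoding RNA that shares enhancers with Igf2 on chromosome 7, was at 2227, 4017, 3670.3 and 3329 CPM, against 67.05 to 928 CPM (median 406) in the other 26 tumors (log2 fold change of 3.22 ± 0.29 (SE), adjusted p = 2.50e-10). Plagl1, an imprinted zinc finger protein of chromosome 10, was at 58.1, 40.6, 49.1 and 88.1 CPM, against 0.575 to 9.95 CPM (median 2.59) in the other 26 tumors (log2 fold change of 4.58 ± 0.23 (SE), adjusted p = 1.39e-15). All 3 were higher than in each line, without overlap of ranges.

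The noncoding RNAs of the Dlk1-Meg3 cluster on chromosome 12 went the other way. Meg3 was at 0.601, 1.44, 1.67 and 0.919 CPM, with means of 50.7 CPM in MCA-943, 2.46 in MCA-948, 171 in MCA-969 and 334 in MCA-970 (log2 fold change of -5.47 ± 0.52 (SE), adjusted p = 6.95e-10). Rian was at 0.901, 1.86, 2.16 and 0.891 CPM, with means of 84.8 CPM in MCA-943, 2.62 in MCA-948, 181 in MCA-969 and 504 in MCA-970 (log2 fold change of -5.52 ± 0.55 (SE), adjusted p = 2.23e-09). MCA-948 was low as well, so the difference from that line was -1.08 for Meg3 and -0.85 for Rian (adjusted p = 0.0547 and 0.144). Mirg was lower than in each line, at no more than 0.109 CPM. Dlk1, the protein-coding gene of the cluster, was higher than the mean by 1.6 on the log2 scale (adjusted p = 1.90e-05) but lower than in MCA-969 (mean of 1349.6 CPM against 332 ± 139 CPM (SD, n = 4)), and it was named after its value was seen.

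Igf2 also belongs to the insulin-like growth factor axis, of which 4 of 15 tested members were higher and 1 was lower. Igfbp2, a binding protein for these factors, was at 17.1, 15.5, 16.03 and 26.7 CPM, against 0 to 5.15 CPM (median 1.02) in the other 26 tumors (log2 fold change of 5.44 ± 0.40 (SE), adjusted p = 4.19e-12). Igfbp5 was higher than the mean (2.61, but adjusted p = 0.247 with the block covariate), although MCA-970 had as much, with a mean of 266 CPM against 221 ± 35.3 CPM (SD, n = 4). Lin28b, an RNA-binding protein of fetal cells, was lower than the mean, at no more than 0.191 CPM, with means of 0.0784 CPM in MCA-943, 17.2 in MCA-948, 8.36 in MCA-969 and 1.602 in MCA-970.

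Most tested Hox genes were lower. Of 30 tested 17 were lower and 3 higher, with a median of -1.21. Hoxc10 was at 0.0819, 0.905, 0.391 and 0.473 CPM, with means of 4.16 CPM in MCA-943, 88.8 in MCA-948, 10.2 in MCA-969 and 64.2 in MCA-970 (log2 fold change of -5.55 ± 0.56 (SE), adjusted p = 2.75e-09). Genes of the HoxB cluster were low in MCA-972 and also in MCA-943. Hoxb7 was at 0.0546, 0.122, 0.235 and 0.306 CPM, with means of 0.204 CPM in MCA-943, 16.2 in MCA-948, 16.7 in MCA-969 and 12.6 in MCA-970. Hoxb9 was at 0.0819, 0.2201, 0.235 and 0.111 CPM, with means of 0.187 CPM in MCA-943, 2.39 in MCA-948, 15.4 in MCA-969 and 57.4 in MCA-970. Hoxc10 and Hoxd3 were lower than in each line, while Hoxb7, Hoxb6 and Hoxb9 were not called against MCA-943. Hoxc8 and Hoxa3 were among those higher than the mean, by 1.28 and 1.13, and they were named after their values were seen.

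Other factors of position and patterning differed in both directions, with 8 of 29 higher and 5 lower. Alx4, a homeobox factor of the limb and face, was at 3.08, 1.93, 2.97 and 2.199 CPM, with means of 0 CPM in MCA-943, 0.00981 in MCA-948, 0.181 in MCA-969 and 0.586 in MCA-970 (adjusted p = 5.68e-13). Msx2, a target of bone morphogenetic proteins, was at 4.395, 5.26, 7.25 and 6.04 CPM, against 0 to 1.596 CPM (median 0.238) in the other 26 tumors (log2 fold change of 5.39 ± 0.36 (SE), adjusted p = 3.00e-13). Both were higher than in each line, and Dlx2 was lower than in each. Dlx2 had at most 1 count in a tumor of MCA-972, with means of 7.42 CPM in MCA-943, 0.511 in MCA-948, 7.98 in MCA-969 and 0.988 in MCA-970 (adjusted p = 5.46e-12).

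Wnt signals are secreted ligands that act through Frizzled receptors, and R-spondins strengthen them through Lgr receptors. On this list 13 of 32 tested members were higher and 5 lower. Among the ligands, Wnt10a was at 0.109, 0.0245, 0.0521 and 0.0557 CPM, against 0.991 to 37.1 CPM (median 3.51) in the other 26 tumors (log2 fold change of -6.24 ± 0.45 (SE), adjusted p = 1.75e-12), and Wnt6 was almost absent, at no more than 0.0557 CPM. Wnt9a was at 2.89, 5.84, 5.45 and 6.21 CPM, against 8.31 to 35.5 CPM (median 15.1) in the other 26 tumors (log2 fold change of -1.66 ± 0.29 (SE), adjusted p = 2.25e-05). In contrast, Wnt2b was at 1.86, 1.74, 2.45 and 2.28 CPM, against 0.169 to 1.57 CPM (median 0.635) in the other 26 tumors (log2 fold change of 1.74 ± 0.24 (SE), adjusted p = 7.97e-07). The R-spondin Rspo1 was at 1.34, 1.17, 1.69 and 1.34 CPM, against 0 to 0.613 CPM (median 0.185) in the other 26 tumors (adjusted p = 9.38e-10). Lgr6, a receptor of R-spondins, was lower (-2.14, adjusted p = 9.76e-05). All 6 were called against each line.

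Among genes of the TGF-beta and bone morphogenetic protein (BMP) pathways 10 of 26 tested members were higher and 2 lower. Bmp4, a ligand of this family, was at 24.8, 19.3, 10.9 and 13.98 CPM, against 0.074000 to 11.2 CPM (median 4.14) in the other 26 tumors (log2 fold change of 3.11 ± 0.23 (SE), adjusted p = 5.05e-12). Tumor 3 was the lowest of the 4 and lay within the range of the other lines. Gdf6, a ligand active in joints, was at 0.682, 0.758, 0.912 and 1.14 CPM, against 0 to 0.221 CPM (median 0.0605) in the other 26 tumors (log2 fold change of 3.83 ± 0.37 (SE), adjusted p = 1.03e-09). Gdf10 and the BMP antagonist Nog were higher than the mean by 2.31 and 1.7 but not than each line, and Nog lost its call with the block covariate (adjusted p = 0.626).

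Adhesion molecules of the cadherin and related families gave 7 higher and 3 lower of 19. Cdh10, a classical cadherin of brain, was at 24.8, 22.5, 17.5 and 33.6 CPM, against 0 to 10.7 CPM (median 0.244) in the other 26 tumors (log2 fold change of 6.17 ± 0.46 (SE), adjusted p = 5.92e-12). Pcdh10 was as high in MCA-970, at 14.4 ± 3.82 CPM (SD, n = 4) in MCA-972 and a mean of 15.04 CPM in MCA-970. Cdh13, the cadherin without a transmembrane part, was lower than in each line, at 4.86, 5.92, 6.65 and 10.8 CPM against 18.6 to 121 CPM (median 55.03) in the other 26 tumors (log2 fold change of -2.86 ± 0.29 (SE), adjusted p = 2.69e-09). Cdh19, listed as a Schwann cell marker, was at 38.1, 28.95, 38.2 and 39.3 CPM, with means of 0.0279 CPM in MCA-943, 0.0404 in MCA-948, 0.0278 in MCA-969 and 4.61 in MCA-970 (log2 fold change of 8.25 ± 0.27 (SE), adjusted p = 3.50e-20). With the block covariate Cdh19 had an adjusted p of 0.0519, while within the first block it was called against MCA-969 (3.77e-10). Sox10, a defining factor of Schwann cells, had at most 1 count in a tumor of MCA-972, and on that list 1 of 9 tested genes was higher and 2 were lower.

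Among epithelial and mesothelial genes 1 of 13 tested members was higher and 7 lower, with a median of -2.1. Krt18, a keratin of simple epithelium, was at 0.682, 0.807, 0.443 and 0.613 CPM, with means of 3.03 CPM in MCA-943, 91.9 in MCA-948, 255 in MCA-969 and 7.64 in MCA-970 (log2 fold change of -5.41 ± 0.37 (SE), adjusted p = 1.09e-12), and it was lower than in each line. Its partner Krt8 and the mesothelial protein Msln were at no more than 0.334 and 0.0782 CPM, but MCA-970 was low for both, with means of 0.144 and 0.01097 CPM. On the keratinocyte list 2 of 6 were higher and 2 lower, Lgals7 among the latter. Of 11 regulators of epithelial-mesenchymal transition 1 was called, Snai2, which was higher (1.11, adjusted p = 4.94e-09) but by only 0.66 with the block covariate.

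Growth factor receptor kinases gave 9 higher and 5 lower of 26, and none was called against each line. Epha7, an ephrin receptor, was higher than the mean by 4.04 but not higher than in MCA-970 (-0.88). Fgfr2, a receptor of fibroblast growth factors, was higher than the mean by 2.69 but not higher than in MCA-969 (-0.07). Genes that report the output of the ERK pathway were mostly not called, with 1 higher and 2 lower of 19. Areg, a ligand of the EGF receptor, and Myc were the lower ones (-3.09 and -1.23). Areg was at 1.51 ± 0.511 CPM (SD, n = 4) in MCA-972 and had a mean of 1.58 CPM in MCA-943. Myc was at 133, 133, 102 and 299 CPM, with means of 165 CPM in MCA-943, 816 in MCA-948, 1310.5 in MCA-969 and 133 in MCA-970. Etv5 was higher (1.11). With the block covariate Myc had an adjusted p of 0.0592 and Etv5 a log2 fold change of 0.88, so neither was called. Of 17 genes of p53 and the cell cycle brakes 3 were higher and 1 lower. Cdkn2a was higher than the mean (1.03), but among the other lines MCA-943 alone was low, where its mean was 18.02 CPM against 459.6 ± 54.2 CPM (SD, n = 4) in MCA-972 and 444, 505 and 631 CPM in the rest. Without MCA-943 the log2 fold change of Cdkn2a was -0.16, and with the block covariate its adjusted p was 0.175.

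None of 22 proliferation genes was called in either direction, and their median log2 fold change was 0.09. Of 21 cholesterol genes 1 was lower and 0 higher, and of 25 hypoxia and glycolysis genes 4 were lower and 0 higher. Pfkp, a phosphofructokinase, was lower than in each line, at 32.6, 36.8, 26.4 and 31.7 CPM against 60.3 to 132 CPM (median 92.7) in the other 26 tumors (log2 fold change of -1.53 ± 0.17 (SE), adjusted p = 1.28e-08). Ldha was lower than the mean (-1.002), just past the threshold, and was not called with the block covariate (-0.80) or with DESeq2. On the list of xenobiotic and oxidative stress genes 4 of 16 were higher and 0 lower. Gsta4, a glutathione transferase for lipid peroxidation products, was at 57.000000, 31.6, 50.1 and 56.04 CPM, against 0.345 to 11.8 CPM (median 2.16) in the other 26 tumors (log2 fold change of 4.58 ± 0.20 (SE), adjusted p = 2.81e-17). Ahrr, the repressor and target of the aryl hydrocarbon receptor that binds MCA, was at 2.05, 2.49, 1.85 and 1.84 CPM, against 0.152 to 1.34 CPM (median 0.574) in the other 26 tumors (log2 fold change of 1.89 ± 0.24 (SE), adjusted p = 1.35e-07). Gsta4 and Ahrr were called against each line.

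Among genes seen by the immune system, those of MHC class I were lower than the mean of the other lines or not called. On the MHC class I list 0 of 18 tested members were higher and 7 lower, with a median of -0.74. H2-T23, which codes for the nonclassical molecule Qa-1 that is read by NKG2A, was at 3.03, 5.16, 5.08 and 4.09 CPM, with means of 156 CPM in MCA-943, 12.7 in MCA-948, 23.4 in MCA-969 and 21.3 in MCA-970 (log2 fold change of -2.86 ± 0.24 (SE), adjusted p = 5.50e-11). It was the 1 member lower than in each line. The classical genes H2-K1 and H2-D1 were lower than the mean but higher than in MCA-948. H2-K1 was at 51.5, 117, 81.5 and 87.7 CPM, with means of 2091 CPM in MCA-943, 22.004 in MCA-948, 328 in MCA-969 and 1022 in MCA-970 (log2 fold change of -2.06 ± 0.20 (SE), adjusted p = 1.28e-09). H2-D1 had a log2 fold change of -1.98 against the mean and 1.07 against MCA-948. H2-Q7, which lost its call with the block covariate (adjusted p = 0.147), belongs with its neighbours to a family of near-identical genes, so their levels are uncertain.

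Of 24 tested NK cell ligands and checkpoint genes 2 were higher and 4 lower, and Nectin2 was the 1 called against each line. Nt5e, the ectoenzyme CD73 that makes adenosine, was at 386, 259, 289 and 299 CPM, with means of 11.7 CPM in MCA-943, 33.8 in MCA-948, 21.8 in MCA-969 and 199.9 in MCA-970 (log2 fold change of 3.09 ± 0.20 (SE), adjusted p = 3.33e-13). Cd80 and Cadm1 had log2 fold changes of -2.26 and -2.62, at levels of no more than 0.547 and 0.2201 CPM in MCA-972, and Cadm1 lost its call with the block covariate (adjusted p = 0.135). Interferon-stimulated genes gave 0 higher and 4 lower of 32, chemokines 2 higher and 3 lower of 19, and cytokines 1 higher and 3 lower of 22. Cxcl12, which attracts leukocytes through CXCR4, was at 782, 603, 955 and 1012 CPM, with means of 505 CPM in MCA-943, 21.1 in MCA-948, 91.1 in MCA-969 and 379 in MCA-970 (log2 fold change of 2.6 ± 0.31 (SE), adjusted p = 4.48e-08), and Cxcl3 was higher than in each line but at no more than 1.64 CPM. Complement and related genes gave 5 higher and 2 lower of 13. Masp1, a protease of the lectin pathway, was at 87.001, 77.5, 84.998 and 67.4 CPM, against 0.372 to 37.7 CPM (median 17.1) in the other 26 tumors (log2 fold change of 3.42 ± 0.21 (SE), adjusted p = 1.83e-13), and C1qtnf3 and Cd55 were called against each line too, with log2 fold changes of 2.63 and 1.6. With the block covariate their adjusted p was 0.055 and 0.147. Of 24 angiogenic factors 6 were higher and 4 lower, and Pdgfb, a growth factor that draws in pericytes, was lower than in each line, at 0.737, 1.52, 2.22 and 3.34 CPM against 2.24 to 15.97 CPM (median 7.499) in the other 26 tumors (log2 fold change of -1.89 ± 0.43 (SE), adjusted p = 5.89e-04, and 0.0507 with the block covariate).

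Cells carrying CD45 had been removed before sequencing, so leukocyte levels show what was left afterwards and do not measure infiltration of the tumor. In these bulk samples, fewer cells of a type and less RNA per cell cannot be told apart. The 12 pan-leukocyte markers summed to between 276 and 314 CPM in the MCA-972 tumors and between 222 and 481 CPM (median 270.4) in the other 26, and 0 of them were higher and 1 lower. The 18 myeloid markers summed to between 63.1 and 160.1 CPM in the MCA-972 tumors and between 31.7 and 589 CPM (median 83.8) in the other 26, and none was called. The 18 T and NK cell markers summed to between 6.02 and 11.5 CPM in the MCA-972 tumors and between 3.14 and 76.9 CPM (median 15.6) in the other 26, with 1 higher and 4 lower of 15 tested. The median of that sum was 6.46 CPM in MCA-972, 4.95 in MCA-948 and 5.45 in MCA-970, and it was 37.1 in MCA-943 and 18.9 in MCA-969. Ncr1, which codes for NKp46, had 0 counts in all 4 MCA-972 tumors, which allows up to 0.0792 CPM per tumor at a limit of 3 counts, and between 0 and 3.29 CPM elsewhere (median 0.0344), and Lck, a kinase of T cells, was lower than in each line, at 0.0546, 0.122, 0.313 and 0.251 CPM against 0.271 to 5.52 CPM (median 0.7599) in the other 26 tumors. Endothelial markers gave 0 higher and 4 lower of 16, and their sum lay between 91.2 and 216 CPM in the MCA-972 tumors and between 45.7 and 741 CPM (median 282) in the other 26. Pecam1, the endothelial protein CD31, was at 10.7, 14.2, 18.3 and 32.8 CPM, with means of 27.03 CPM in MCA-943, 38.8 in MCA-948, 39.1 in MCA-969 and 85.04 in MCA-970 (log2 fold change of -1.18, adjusted p = 0.0792).

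Pericyte markers gave 1 higher and 4 lower of 10, and they summed to between 96.7 and 157 CPM in the MCA-972 tumors and between 139 and 364 CPM (median 225) in the other 26. Rgs5, their best known marker, was at 1.28, 1.27, 1.43 and 3.48 CPM, with means of 4.35 CPM in MCA-943, 17.1 in MCA-948, 23.8 in MCA-969 and 46.96 in MCA-970 (log2 fold change of -3.19 ± 0.85 (SE), adjusted p = 0.00257). Cspg4, known as NG2, was lower than in each line (-1.72), while Steap4, a metalloreductase, was higher than in each line (2.24). Adipocyte markers gave 1 higher of 5 tested and summed to between 11.2 and 55.6 CPM in the MCA-972 tumors and between 2.92 and 46.3 CPM (median 15.1) in the other 26. Keratinocyte markers summed to between 4.64 and 5.54 CPM in the MCA-972 tumors and between 9.33 and 140.1 CPM (median 20.5) in the other 26, and the Schwann cell list to between 42.9 and 55.1 CPM in the MCA-972 tumors and between 11.1 and 28.3 CPM (median 17.2) in the other 26, where Cdh19 alone gave 28.95 to 39.3 CPM in MCA-972. Skeletal muscle markers summed to between 31.4 and 75.8 CPM in the MCA-972 tumors and between 28.5 and 87.4 CPM (median 54.4) in the other 26. The part of these cells in the differences above was not tested.

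**Figure D5:**
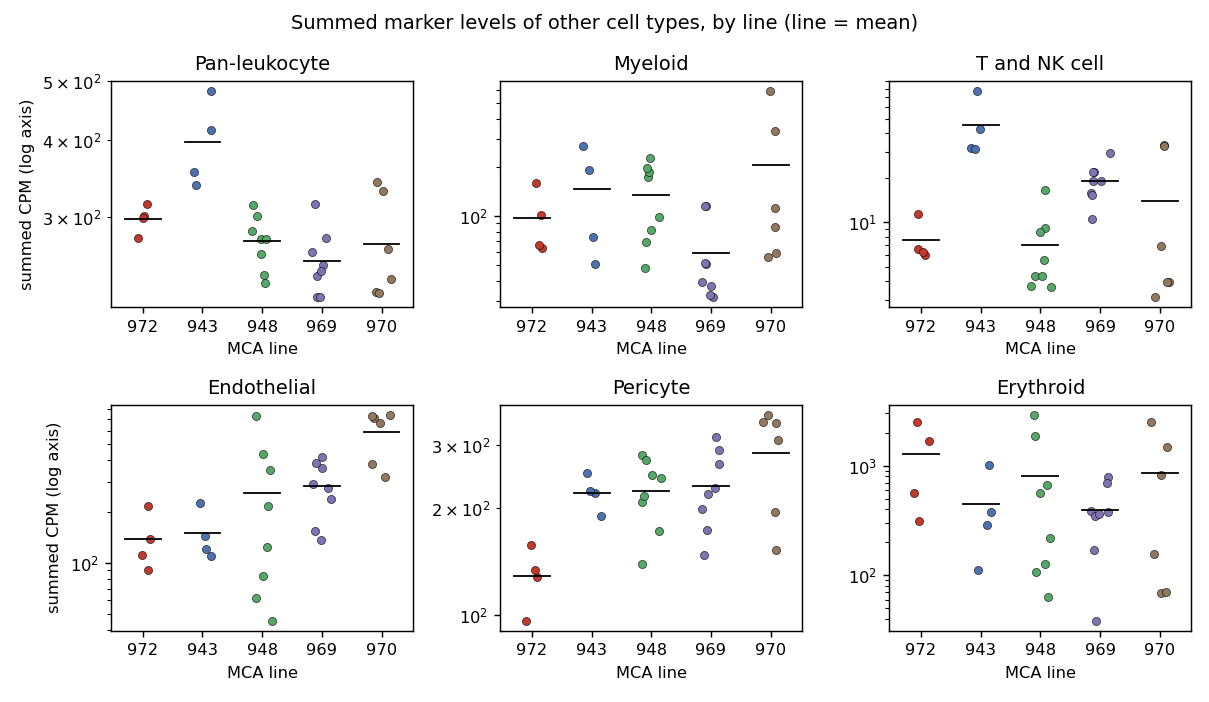
Summed CPM (log axis) of the markers of 6 other cell types in each of the 30 tumors, by line, with a bar at each line's mean. Pericyte markers in the 4 MCA-972 tumors (96.7 to 157 CPM) lie at or under the low end of the other 26 (139 to 364 CPM), and erythroid markers (313 to 2481 CPM) differ most among the 4.

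The 6 genes with the widest range of log2 CPM among the 4 tumors, of those with a mean of at least 5 CPM, included Slc4a1, Car2, Alas2, Hbb-bt and Hba-a1, all of which are expressed in the erythroid lineage. Hba-a1, an alpha globin, was at 360.2, 36.2, 218 and 70.1 CPM, against 6.26 to 375 CPM (median 44.7) in the other 26 tumors (log2 fold change of 1.2, adjusted p = 0.185). Slc4a1, the red cell anion exchanger, was at 47.7, 0.465, 5.11 and 10.6 CPM, against 0.0726 to 12.4 CPM (median 2.57) in the other 26 tumors (log2 fold change of 2.07 ± 0.80 (SE), adjusted p = 0.0311, and 0.822 with the block covariate). For all 6 genes tumor 1 was highest and tumor 2 lowest. The erythroid list had 1 gene higher of 7, and its sum was 2481, 313, 1692 and 567 CPM in the 4 tumors.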

How the data were processed

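Total RNA of CD45-depleted tumors was sequenced, and the authors deposited 1 table of raw read counts per gene for all 30 tumors. Per the labels and methods, reads were aligned with STAR 2.5.3a to GRCm38 and counted with featureCounts (1.5.2 in the submitters' processing notes, another version in the methods). The column names show that duplicates were removed by molecular identifiers. Whether counting used strand is not given in the sources used here.

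Genes were named from GENCODE mouse M21 (48058 of 48440), and promoters were taken from RefSeq (GRCm38.p6), with those of chromosome 18 left out. Counts were filtered with filterByExpr, scaled by TMM and fitted with edgeR 4.0.16 (robust quasi-likelihood, 1 mean per line, 30 tumors, biological coefficient of variation 0.221) in R 4.3.3. MCA-972 was compared with the unweighted mean of the 4 other lines and with each line. CPM used TMM library sizes and log2 CPM a prior count of 2. A count of 0 was read with a limit of 3 counts per library, which covers counting error only. No 2 libraries held the same counts. The fit was tested on simulated data first. DESeq2 1.42.0, limma 3.58.1 and other filters, scalings, thresholds and samples were tried as alternatives, with the library block as a covariate among them, and some were added after the data had been seen.

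Genes named in the text were the 12 protein-coding genes in each direction with the largest weakest-line difference (a mean of at least 1 CPM in MCA-972, or in every other line for lower genes), the members of 40 gene lists called against each line and up to 4 more per list with the largest change, the 6 genes most variable among the MCA-972 tumors, defining markers of other cell types, and the chromosome 4 run with its neighbours. The tumors compared, the members and the lists were chosen with earlier results of these data known. Some genes that the rule names are not reported here. The NK cell labels were not compared with each other. Read depth, at 27745104 to 46537062 counts per tumor, puts 3 counts at 0.0792 CPM in MCA-972.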

Additional observations from a re-analysis of the deposited data

Results flagged for a closer look

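Each of 101 values was examined for 1 MCA-972 tumor that stood apart from the other 3 by Dixon's criterion, and 11 did. For independent, normally distributed values, chance marks about 1 in 20 such groups of 4. The 101 values come from the same 4 tumors and are not independent, so 11 cannot be read as an excess over chance. Tumor 4 was the one apart in 7 of the 11. It had the highest Jun (13704 CPM, against 7536 to 8322 in the rest), Eln (184.7 CPM, against 64.34 to 81.69), C1qtnf3 (576.0 CPM, against 205.9 to 257.2), Igfbp2 (26.73 CPM, against 15.48 to 17.12), Itga6 (14.67 CPM, against 10.95 to 11.14) and Dcaf12l1 (4.538 CPM, against 2.502 to 2.675), and the lowest Gm12666 (1.782 CPM, against 2.511 to 2.617).

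Tumor 3 had the highest Asb2 (5.448 CPM, against 2.561 to 2.784) and the highest summed level of T and NK cell markers (11.47 CPM, against 6.016 to 6.579). Tumor 2 had the lowest Cdh19 (28.95 CPM, against 38.11 to 39.25) and, with it, the lowest sum of the Schwann cell list (42.94 CPM, against 53.54 to 55.06). Cdh19 is part of that sum, so these 2 values are not independent. Each of the 9 genes kept all 4 MCA-972 tumors on the same side of the other 26, which the choice of genes favours.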

How the results depend on the processing

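Direction and call held for most values: of 7272 values of 182 genes under the alternatives, 7079 kept both, 181 were no longer called (70 genes) and 12 reversed. Most of these values came from fits that left out 1 of the 30 tumors. The 182 genes had been chosen by their call, so a high share was likely in advance. With the library block as a covariate alone, 56 of the 182 genes lost their call. The reversed values were Cdkn2b (-0.069) and Cdkn2a (-0.16) without MCA-943, Dmp1 (0.0016) without MCA-969, and, in the first library block against MCA-969, Alpl (-0.29), Gdf10 (-0.022), Fgfr2 (-0.13), Trp53 (-0.56), Cdkn2b (-0.13), Cdkn2a (-0.17), Il15 (0.082), Cd53 (0.52) and Perp (-2.65). The cause was not tested.

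Counts are given as higher and lower than the mean, then higher and lower than each line. They were 1835, 1016, 417 and 185, and with no fold threshold 4509, 4140, 925 and 807, and at a log2 fold change of at least 2 they were 779, 309, 150 and 42. With no filter 3216 genes were higher than the mean, and with a mean of at least 1 CPM 1036 were, with 210 higher than each line. The library block as a covariate gave 1110 and 813, then 179 and 140. Without MCA-943, 642 were higher and 288 lower than each line, without MCA-948 345 were lower, and without MCA-970 732 were higher and 331 lower, since fewer lines had to be passed. All other tumors as 1 group gave 802 higher. Leaving out 1 tumor at a time gave 1809 to 1982, 961 to 1035, 393 to 457 and 169 to 195, and 2998 to 3176 calls within the first block. DESeq2 gave 1881, 1014, 420 and 175.

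Pairs of an MCA-972 tumor with a tumor of another line were compared by their deviations. Those with the same title letter and code correlated above 0.1 in 3 of 6 pairs (median r of 0.00922). All other such pairs did so in 27 of 98 (0.00971). Not every pair passed, so the codes were not taken to pair the tumors. With the code as a replicate block the counts were 1767, 905, 352 and 154. With the title letter as a covariate the counts were 1778, 909, 367 and 153. The chromosome 4 median was 3.26, and 2.93 within the first block. Levels under 0.0792 CPM are below 3 counts and have no order.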

Other observations

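Beyond chromosome 4, few stretches of the genome moved as a block. The genome was read in 2501 overlapping windows of 25 neighbouring tested genes, each described by the median log2 fold change against each of the 4 lines and its value closest to 0. In 3 windows all 4 medians were over 1, and these lay on chromosome 4. In 7 windows all were over 0.5, and in 1 window all were under -0.5. The longest run after that on chromosome 4 was made of 7 genes of the HoxB cluster on chromosome 11, Hoxb9 to Hoxb3, which were lower than the mean of the other lines.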
